A study of Saccharomyces cerevisiae with 12 samples.

Results

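The histone genes of budding yeast (Saccharomyces cerevisiae) were measured in total RNA on 12 single-colour Affymetrix yeast arrays, 3 in each of 4 groups. The groups were a rap1 temperature-sensitive (ts) mutant, the wild type matched to it, an abf1 ts mutant and the wild type matched to that one. Cultures had grown at 25 C and were held at 37 C for 1 h before RNA was isolated, so both wild types had undergone the same heat shift, and unshifted cells were not analysed here. Rap1 and Abf1 are general regulatory factors that bind many yeast promoters, and per the series text the mutant proteins cannot bind DNA at 37 C, so the comparison asks which transcripts changed after binding was lost. YPD, a rich glucose medium, is named for every group but the abf1 wild type. The sources used here do not name the ts alleles, the strain backgrounds or the number of clones.

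The members were the probe sets whose every annotated gene is one of HTA1, HTA2, HTB1, HTB2, HHT1, HHT2, HHF1, HHF2, HHO1 and HTZ1. All 10 genes were found, among 5923 named on the array, and they were read by 10 of its 6832 named probe sets. HTB1, HTB2, HHO1 and HTZ1 each had a probe set of their own. HTA1 and HTA2 shared 2 probe sets, HHT1 and HHT2 shared 3, and HHF1 and HHF2 shared 1, so only the copies of H2B could be told apart. The genes thus form 7 features, each read from the member set with the highest mean signal. All 7 passed the filter on low signals (mean log2 signal over the 12 arrays of at least 8.16), which left 4687 features in the fit.

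Histones H2A, H2B, H3 and H4 form the octamer on which DNA is wound into a nucleosome, and yeast encodes each of them in a pair of genes. Each of these genes stands beside a partner whose product it meets in the octamer: HTA1 beside HTB1, HTA2 beside HTB2, HHF1 beside HHT1 and HHT2 beside HHF2. Their transcription is switched on in late G1 and S phase by Spt10, Spt21 and the cell-cycle factors SBF and MBF. Outside S phase the HIR complex, Asf1 and Rtt106 repress most of these gene pairs, HTA2 and HTB2 being the known exception. HHO1 encodes the linker histone, and HTZ1 encodes H2A.Z, the H2A variant that the SWR1 complex places beside promoters.

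Each array had been scaled to a common mean, with 2% trimmed means of 1500.73 to 1501.28 and median signals of 390.4 to 598.3. Arrays are numbered 1 to 3 within a group, but nothing says that they came from separate cultures, and p-values therefore cover just the spread among these arrays, which may be technical. Equally numbered arrays of a mutant and its wild type deviated together (correlations of 0.25 to 0.824 over the 6 pairs), so the fit with the replicate number as a block is given wherever it changed a call. The labels state no pairing and arrays of unequal number were not correlated, so a pairing is not shown. The 3′ to 5′ signal ratio of the control probe sets for ACT1, the actin transcript, was 48.4, 20.1 and 28.0 in the rap1 ts arrays 1 to 3, against 18.25, 6.58 and 2.56 in the rap1 wild-type arrays. These ratios did not overlap (exact permutation p = 0.1, two-sided, the smallest that 3 arrays against 3 allow) and they stand beside every rap1 result below. Genes expressed in cells of the a mating type summed to signals of 16440 to 51490 per array over 6 genes, and those of the alpha mating type to 302.6 to 887.4 over 4 genes. All 6 a-type genes passed the filter, as did 1 of the 4 alpha-type genes. Of the 6 a-type genes 3 were called higher in rap1 ts with the block, where 15% of all features were, and 0 without it. Without it 2 had an unadjusted p under 0.05 and were higher, as were 12.9% of all features.

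In rap1 ts cells the signals of HTB2, HHO1 and HTZ1 lay below those of all rap1 wild-type arrays, while those of HTB1 and of the highest H2A probe set overlapped with them. HHO1 was 4.45-fold, HTB2 4.17-fold and HTZ1 1.73-fold lower between the group means of the log2 values. Without the replicate block, 0 of the 7 histone features were called at an adjusted p under 0.05 (limma, Benjamini-Hochberg over 4687 features), where 0.363% of all features were called lower and 0.0427% higher, and 3 of the 7 had an unadjusted p under that value, as had 22.3% of all features. With the block, those 3, HTB2, HHO1 and HTZ1, were called lower and 0 higher, where 10% of all features were called lower and 15% higher. Signals that stood below all 3 wild-type arrays in all 3 mutant arrays were found for 4 of the 7 features, HHF1/HHF2 being the other, against 10.5% of all features. The log2 fold change of all 7 was below 0 (that of H2A lay at 0.11 after quantile normalization), with a median of -0.50, while 44.1% of all features were below 0 and their median was 0.088 (log2).

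HTB2, which encodes one of the H2B copies and is the neighbour of HTA2, had signals of 358.3, 1715 and 1148 in the rap1 ts arrays 1 to 3, against 3501, 4016 and 3796 in the rap1 wild-type arrays. Every mutant array was below every wild-type array, and mutant array 1 was far below the other mutant arrays. The means were 1074 ± 681.5 in rap1 ts and 3771 ± 258.4 in rap1 wild type (SD, n = 3 each). The log2 fold change was -2.06 (SE 0.51, 95% interval -3.17 to -0.95), the 22nd lowest of the 4687 features, with an adjusted p of 0.104 in limma. With the replicate block HTB2 fell (adjusted p = 0.00891 in limma, SE 0.39), and the paired log2 differences were -3.24, -1.22 and -1.71. Without rap1 ts array 1 the log2 fold change of HTB2 was -1.42, and its call with the block held without any 1 of the rap1 pairs (adjusted p of at most 0.0384 in limma).

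HTB1, the other H2B gene, had signals of 9162, 11354.6 and 8809 in the rap1 ts arrays, against 11805 and 13079 in rap1 wild-type arrays 1 and 2 and 9644 in array 3. The groups overlapped. HTB1 differed by -0.23 on the log2 scale (SE 0.20, 95% interval -0.66 to 0.19), with an adjusted p of 0.486 in limma without the block and 0.303 with it.

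**Figure D1:**
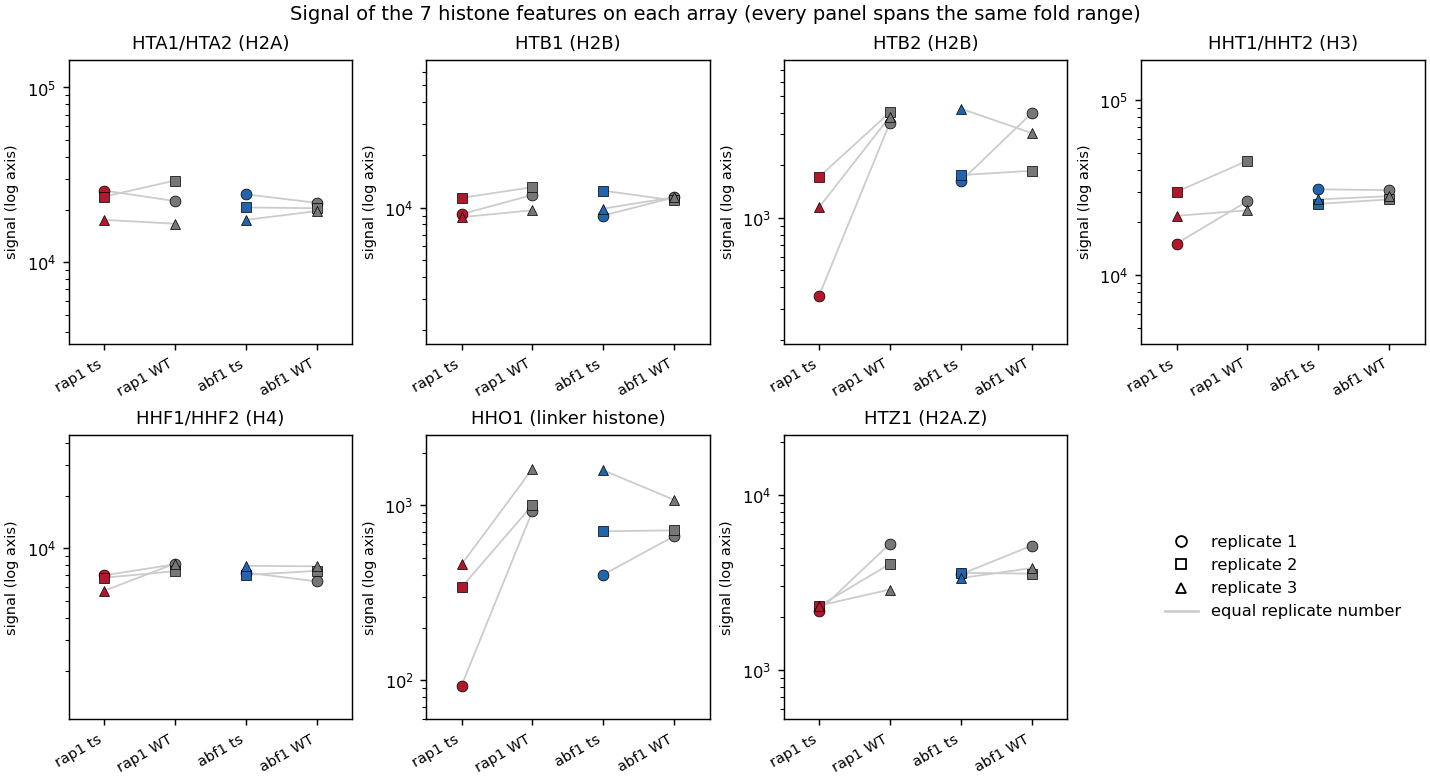
Signal of each of the 7 histone features (log axis, intensity units; every panel spans the same fold range) in the 12 arrays, by group from rap1 ts and rap1 wild type (WT) to abf1 ts and abf1 WT, with symbols for replicates 1, 2 and 3 and grey lines between arrays of equal number. HTB2, HHO1 and HTZ1 show rap1 ts points below every rap1 WT point, with HTB2 at 358.3 and HHO1 at 93.1 in rap1 ts array 1, while HTB1 and HTA1/HTA2 overlap.

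Because both H2B copies were read on the same arrays, their difference can be taken within each array, which removes the scaling of the array. The log2 signal of HTB1 exceeded that of HTB2 by 4.63, 2.72 and 2.93 in the rap1 ts arrays, against 1.75, 1.70 and 1.34 in the rap1 wild-type arrays. All 3 mutant values were above all 3 wild-type values. The means were 3.42 ± 1.05 in rap1 ts and 1.60 ± 0.22 in rap1 wild type (SD, n = 3 each), so the HTB1 to HTB2 ratio was 3.55-fold higher in rap1 ts (exact permutation p = 0.1, two-sided, the smallest possible; exact sign-flip p over the pairs 0.25, also the smallest). Without rap1 ts array 1 the difference between these means was 1.22, against 1.83 with all arrays. In the abf1 series the same difference was 2.47, 2.82 and 1.22 in the ts arrays, against 1.52, 2.56 and 1.90 in the wild-type arrays, and the groups overlapped (exact permutation p = 0.9). The mutant effect on this difference was 1.65 log2 larger in the rap1 series than in the abf1 series, with paired values of 2.88, 1.02 and 1.58 in the rap1 series, against 0.94, 0.27 and -0.68 in the abf1 series (exact permutation p = 0.1, two-sided, the smallest possible). A probe set's level depends on its probes as well as on the transcript, so only the change of this difference between groups is read, not its size within an array. The H2A probe sets described below, which share their annotated genes, also moved apart in the rap1 series, by 1.15 log2. HTB1 had a mean percentile of 96 in rap1 ts and 96.58 in rap1 wild type, and HTB2 had 61.05 and 86.68. Whether the change of the ratio comes from the gene copies or from the probe sets was not tested.

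**Figure D2:**
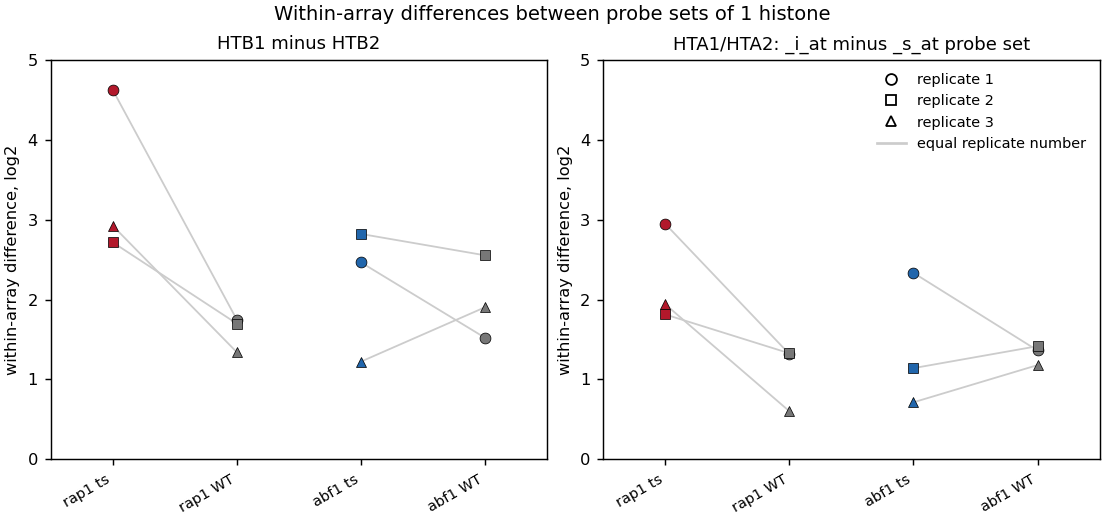
Difference in log2 signal between probe sets read on the same array, for HTB1 minus HTB2 (left) and for the _i_ minus the _s_ set of HTA1/HTA2 (right), by group, with a symbol per array and grey lines between arrays of equal number. For HTB1 minus HTB2 the rap1 ts arrays lie between 2.72 and 4.63, above the rap1 wild-type arrays at 1.34 to 1.75, while the abf1 groups overlap.

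HHO1, the linker histone gene, had signals of 93.1, 340 and 460.1 in the rap1 ts arrays 1 to 3, against 928.3, 1005 and 1619 in the rap1 wild-type arrays. The highest mutant array stood below the lowest wild-type array. The means were 297.7 ± 187.1 in rap1 ts and 1184 ± 378.3 in rap1 wild type (SD, n = 3 each). Within rap1 ts its mean log2 value was 8.03, under the filter floor of 8.16, so HHO1 passed the filter through its other groups. Mutant array 1 stood at percentile 30.71 of its array, so the size of the fall rests on low signals. The log2 fold change was -2.15 (SE 0.56, 95% interval -3.37 to -0.94), the 16th lowest of all features, and its adjusted p in limma was 0.104. HHO1 fell with the replicate block (adjusted p = 0.00606 in limma, SE 0.34), with paired log2 differences of -3.15, -1.53 and -1.79. Without rap1 ts array 1 the log2 fold change of HHO1 was -1.51, and its call with the block also held without any 1 of the rap1 pairs (adjusted p of at most 0.0267 in limma).

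HTZ1, the gene of H2A.Z, had signals of 2181, 2314 and 2332 in the rap1 ts arrays, against 5261, 4037 and 2881 in the rap1 wild-type arrays. The mutant arrays lay close together and the wild-type arrays were spread, with no overlap between the groups. The means were 2276 ± 82.4 in rap1 ts and 4060 ± 1190 in rap1 wild type (SD, n = 3 each). HTZ1 had a log2 fold change of -0.79 (SE 0.24, 95% interval -1.32 to -0.26) with an adjusted p of 0.118 in limma. With the replicate block HTZ1 fell (adjusted p = 0.0255 in limma, SE 0.21). That call was lost without rap1 pair 1 (adjusted p = 0.116 in limma) and without pair 2 (0.0543).

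**Figure D3:**
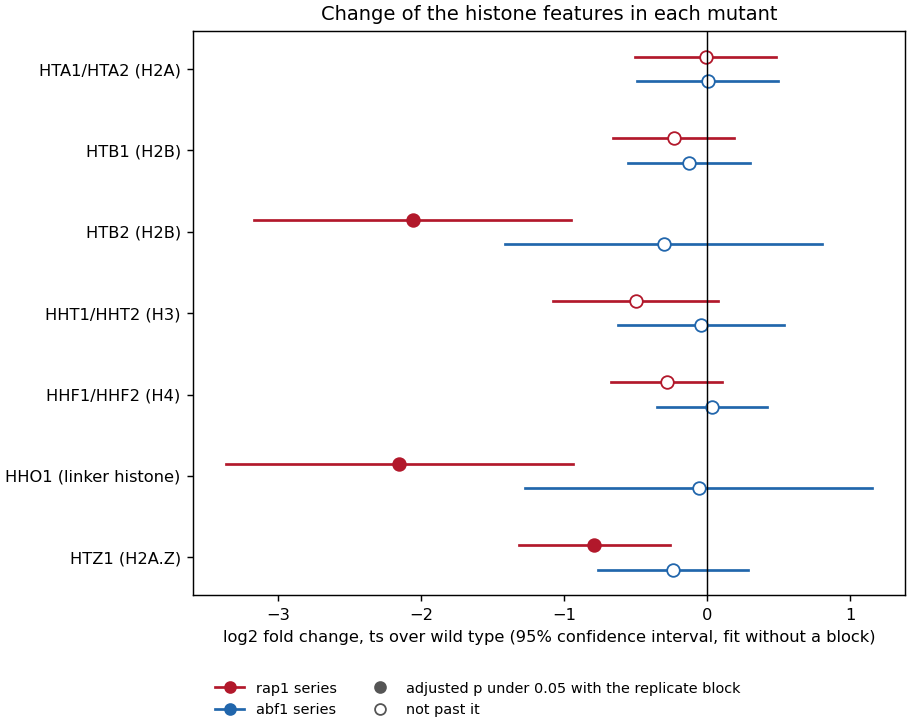
Log2 fold change of each histone feature, ts over its wild type, in the rap1 series and the abf1 series, with 95% confidence intervals from the fit without a block and filled points where the adjusted p with the replicate block was under 0.05. HHO1 (-2.15), HTB2 (-2.06) and HTZ1 (-0.79) in the rap1 series are filled, and every abf1 interval includes 0.

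The ACT1 3′ to 5′ ratio was set beside the histone signals of each array. The 4 arrays with the highest ACT1 3′ to 5′ ratios, the 3 rap1 ts arrays and abf1 ts array 1, had ratios of at least 20.07, against at most 18.25 in the other arrays. The same 4 arrays held the 4 lowest signals of HTB2, at most 1715 against at least 1754 in the other arrays, and of HHO1, at most 460.1 against at least 667.7. They also held the 4 lowest signals of the H2A and H3 _s_ probe sets, which are described below. Of the 4 lowest signals of HTB1, HTZ1 and H4 they held 3 each, of those of H3 by its highest set 2, and of those of H2A by its highest set 1. Over all features, 1.75% had their 4 lowest signals in these 4 arrays, as had 14.3% of the 470 called lower in rap1 ts with the block. The cut at 4 arrays is a choice. In rap1 wild-type array 1, at a ratio of 18.25, HTB2 was at 3501 and HHO1 at 928.3. In rap1 ts array 2, at 20.07, they were at 1715 and 340. In abf1 ts array 2, at 3.47, HTB2 was at 1754. The geometric mean of the SPT15 control ratio was 15.9 in rap1 ts and 4.98 in rap1 wild type (exact permutation p = 0.1, two-sided), and 6.46 in abf1 ts and 5.70 in abf1 wild type (exact permutation p = 1). For SRB4 it was 228 in rap1 ts and 46.4 in rap1 wild type (exact permutation p = 0.2), and 123 in abf1 ts and 177 in abf1 wild type (exact permutation p = 0.7). By SPT15 the same 4 arrays had the highest ratios. By SRB4 the 4 highest included abf1 wild-type array 3 (701.4) and not rap1 ts array 2 (85.91). A higher ratio marks labelled RNA that covers the 5′ end of a transcript less. In the rap1 series this ratio and the ts allele cannot be told apart.

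**Figure D4:**
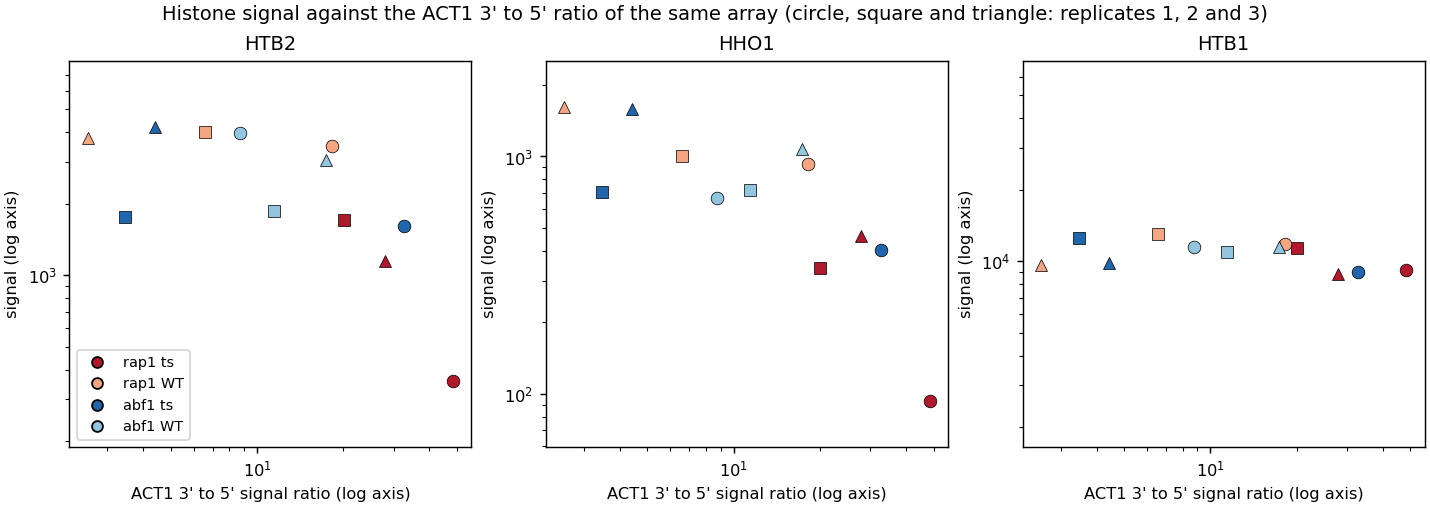
Signals of HTB2, HHO1 and HTB1 (log axis, intensity units; every panel spans the same fold range) against the ACT1 3′ to 5′ signal ratio of the same array (log axis, no unit), with colours for the 4 groups and a symbol per replicate. The 4 arrays at ratios of 20.07 to 48.4 hold the 4 lowest signals of HTB2 and of HHO1, and rap1 ts array 1 is the lowest in both, at 358.3 and 93.1.

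The core histones H2A, H3 and H4 could be read only over both gene copies together, and their probe sets did not all give the same value. Affymetrix marks by _s_ a probe set whose probes match several similar sequences and by _i_ one with an incomplete set of probes. The highest H2A probe set, an _i_ set, had signals of 25735, 23752.5 and 17496 in the rap1 ts arrays, against 22409, 29336 and 16614 in the rap1 wild-type arrays. The groups overlapped, and the log2 fold change was -0.01 (SE 0.23, 95% interval -0.50 to 0.48, adjusted p = 0.985 in limma), or 0.11 after quantile normalization. The H2A _s_ probe set had 3323, 6748 and 4548 in the rap1 ts arrays, against 8984, 11675 and 10939.6 in the rap1 wild-type arrays. Here no mutant array reached a wild-type array, and in a fit of every probe set, added after the data were seen, the log2 fold change was -1.16 (SE 0.31, 2.24-fold lower) with an adjusted p of 0.0983 in limma. With the replicate block the H2A _s_ probe set fell (adjusted p = 0.0113 in limma).

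The same split appeared when both H2A probe sets were set against each other within each array. The log2 signal of the _i_ set exceeded that of the _s_ set by 2.95, 1.81 and 1.94 in the rap1 ts arrays, against 1.32, 1.33 and 0.60 in the rap1 wild-type arrays. These differences did not overlap and had means of 2.23 ± 0.62 in rap1 ts and 1.08 ± 0.42 in rap1 wild type (SD, n = 3 each; exact permutation p = 0.1, two-sided, the smallest possible). The change of the H2A message in rap1 ts therefore depends on the probe set read. Among the non-control probe sets of an array, the _i_ set had a mean percentile of 99.5 in rap1 ts and 99.28 in rap1 wild type. The _s_ set had 88.89 in rap1 ts and 96.05 in rap1 wild type. How well a set so near the top of the range follows a change was not tested. Whether a probe set follows HTA1 or HTA2 more was not analysed here.

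For H3, the highest probe set, an _at set, had signals of 15108, 29851 and 21796 in the rap1 ts arrays, against 26407, 45026 and 23422 in the rap1 wild-type arrays. The groups overlapped, with a log2 fold change of -0.50 (SE 0.27, 95% interval -1.08 to 0.08) and adjusted p-values in limma of 0.285 without the block and 0.0530 with it. Without rap1 pair 3 the H3 set was called with the block (adjusted p = 0.0337 in limma). The H3 _i_ set differed by -0.29 on the log2 scale, with an adjusted p of 0.542 in limma and 0.198 with the block. The H3 _s_ set had 3828, 5822.5 and 4667 in the rap1 ts arrays, against 9087, 8555.5 and 8237.5 in the rap1 wild-type arrays. No mutant array reached the wild-type arrays, and the log2 fold change was -0.87 (SE 0.21, 1.83-fold lower, adjusted p = 0.0861 in limma). The H3 _s_ set fell with the block (adjusted p = 0.0135 in limma). As for H2A, the other H3 sets stood nearer the top of the arrays. The mean percentile in rap1 ts was 99.26 for the _at set, 99.43 for the _i_ set and 89.14 for the _s_ set. Within arrays, the difference between the H3 _at and _s_ sets averaged 2.18 ± 0.19 log2 in rap1 ts and 1.81 ± 0.50 in rap1 wild type (SD, n = 3 each; exact permutation p = 0.4, two-sided), and the groups overlapped.

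H4 was read by a single _s_ probe set, which had signals of 7008, 6789 and 5712 in the rap1 ts arrays, against 8106, 7404 and 8180.5 in the rap1 wild-type arrays. The mutant arrays were all below the wild-type arrays, by a small margin. The log2 fold change was -0.28 (SE 0.18, 95% interval -0.67 to 0.10), with an adjusted p of 0.357 in limma and of 0.204 with the block. Counted over the 10 histone probe sets in the fit of every probe set, 5 were called lower and 0 higher with the block, where 9.72% of all probe sets were called lower and 13% higher: the H2A _s_ and H3 _s_ sets, HTB2, HHO1 and HTZ1. Without the block 0 of the 10 were called, where 0.494% of all probe sets were called lower and 0.0732% higher, and 5 of the 10 had an unadjusted p under 0.05, as had 21.6% of all probe sets.

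**Figure D5:**
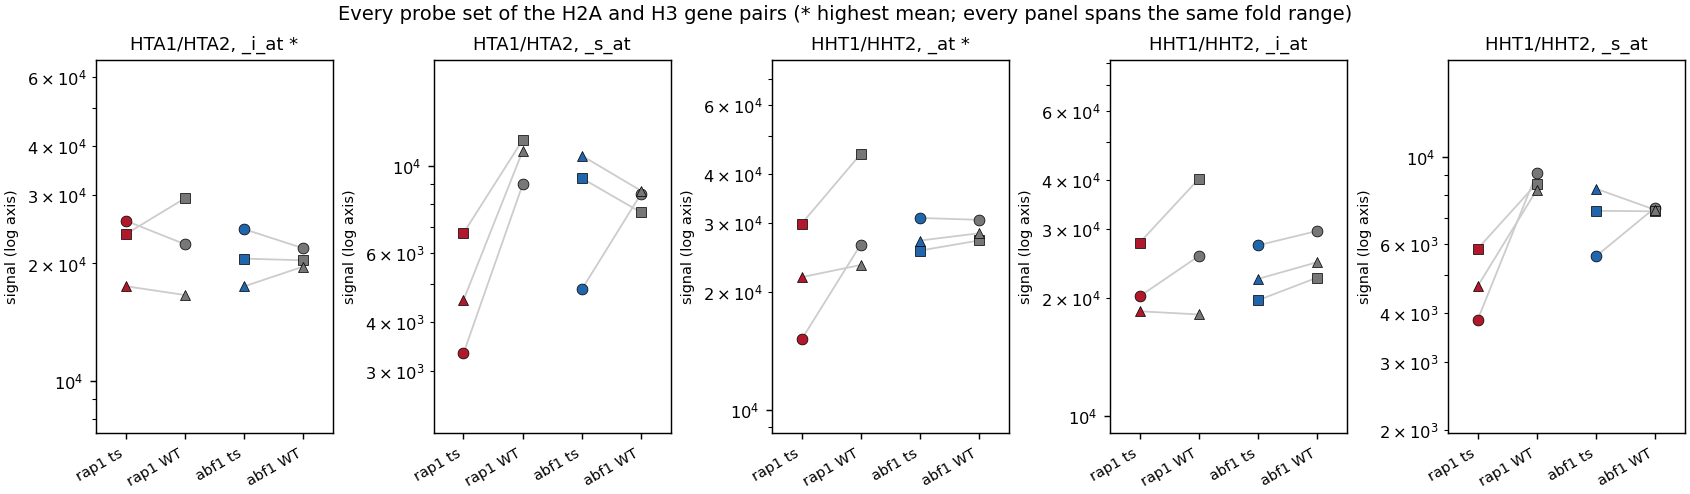
Signal of the 2 H2A and 3 H3 probe sets (log axis, intensity units; every panel spans the same fold range, and an asterisk marks the set of highest mean) in the 12 arrays by group, with symbols for replicates and grey lines between arrays of equal number. The rap1 ts arrays lie below every rap1 wild-type array for the _s_ sets, at 3323 to 6748 for H2A and 3828 to 5822.5 for H3, and overlap with them for the other sets.

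In abf1 ts cells 0 of the 7 histone features were called with or without the replicate block, where 0.0427% of all features were called lower without it and 0.213% with it. Without the block 0 of the 7 had an unadjusted p under 0.05, where 3.09% of all features had. The groups overlapped for all 7 features, against 5.33% of all features that stood lower in every mutant array and 2.28% that stood higher. Of the 7 log2 fold changes 5 were below 0, all but H2A and H4 (which were below 0 after median centring, while H3 was above 0 after quantile normalization), with a median of -0.06, while 54.51% of all features were below 0 and their median was -0.029 (log2). A fold change near 0 with 3 arrays a group does not show that a gene stayed the same, and the intervals below give the sizes that these arrays leave possible. Over the 10 histone probe sets 0 were likewise called with or without the block, where 0.0366% of all probe sets were called lower without it and 0.0915% with it. Without the block 0 of the 10 had an unadjusted p under 0.05, where 2.85% of all probe sets had.

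HTB2 had signals of 1617, 1754 and 4214 in the abf1 ts arrays 1 to 3, against 3971, 1859 and 3053 in the abf1 wild-type arrays. Both groups were widely spread, at 2528 ± 1462 in abf1 ts and 2961 ± 1059 in abf1 wild type (SD, n = 3 each), and the log2 fold change was -0.30 (SE 0.51, 95% interval -1.41 to 0.81). HHO1 had 401.7, 711.2 and 1588 in the abf1 ts arrays, against 667.7, 719.7 and 1076 in the abf1 wild-type arrays. Its mutant arrays covered the whole range of the wild-type arrays, and the log2 fold change was -0.06 (SE 0.56, 95% interval -1.27 to 1.15). The paired differences of HHO1 ran from -0.71 to 0.56, so they did not share a direction. For abf1 ts array 1, which had the lowest HTB2 and HHO1 signals of its group, the ACT1 3′ to 5′ ratio was 32.7, against 3.47 and 4.41 in the other abf1 ts arrays.

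HTZ1 had signals of 3522, 3592 and 3349 in the abf1 ts arrays, against 5134, 3552 and 3824 in the abf1 wild-type arrays. The mutant arrays again lay close together, but they overlapped with the wild type, and the log2 fold change was -0.24 (SE 0.24, 95% interval -0.77 to 0.29). HTB1, the H2A and H3 sets of highest mean and H4 had log2 fold changes between -0.13 and 0.033, and the widest of their intervals was that of H3, from -0.62 to 0.54. The H4 set had 7276, 7043.5 and 7941 in the abf1 ts arrays, against 6472, 7437 and 7895 in the abf1 wild-type arrays.

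The difference between the mutant effects, rap1 minus abf1, was tested in its own right. For HHO1 it was -2.10 on the log2 scale (SE 0.79, 95% interval -3.81 to -0.38), with an adjusted p of 0.371 in limma. With the replicate block it passed the threshold (adjusted p = 0.0362 in limma, SE 0.48). Of the 7 histone features HHO1 alone was so called, where 2.88% of all features were called lower with the block and 6.21% higher (9.09% in all), and 0% in either direction without it. For HTB2 the difference was -1.76 (SE 0.73, 95% interval -3.33 to -0.19), with adjusted p-values in limma of 0.373 without the block and 0.0690 with it. HTZ1 differed by -0.55, H3 by -0.46, H4 by -0.32, HTB1 by -0.11 and H2A by -0.01, each with an interval that included 0. Both HHO1 and HTB2 had an unadjusted p under 0.05 for this difference, as had 12.7% of all features. Without rap1 ts array 1 the difference was -1.45 for HHO1 and -1.11 for HTB2. The fit with the block was not repeated for this difference with a pair left out. A larger fall of HTB2 or HTZ1 in rap1 ts than in abf1 ts was therefore not shown, although each was called only in rap1 ts.

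The wild types were also set against each other, since each belongs to its own series. Of the 7 features, 0 were called, as were 0% of all features, and 0 of the 7 had an unadjusted p under 0.05, where 3.33% of all features had. The groups overlapped for all 7, where 7.19% of all features were lower and 2.03% higher in every rap1 wild-type array. HHO1 differed by 0.51 (SE 0.56) and HTB2 by 0.41 (SE 0.51) on the log2 scale, rap1 wild type minus abf1 wild type. The other 5 lay between -0.06 and 0.12. The H2A _s_ and H3 _s_ probe sets stood higher in all 3 rap1 wild-type arrays than in all 3 abf1 wild-type arrays, by 0.34 and 0.23 log2, with an adjusted p of 0.972 in limma. Strain, series and hybridisation cannot be told apart in this comparison.

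The histone features differed in how much they varied between arrays of one group. HHO1 had a within-group SD of 0.80 log2, above 92.9% of all features, and HTB2 one of 0.75, above 90.6%. HTB1 had 0.19, above 5.18% of all features, and H4 had 0.12, above 0.597%, so both are among the steadiest signals on the array. The median feature had 0.41. H3 had 0.36, H2A had 0.28 and HTZ1 had 0.26. The features with the largest fold changes in rap1 ts, HHO1 and HTB2, are thus also those with the largest spread.

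Signals alike to each called histone were sought by the root mean square (RMS) of the log2 difference over the 12 arrays, after each gene was centred on its mean. HTB2 and HHO1 were close to each other, with an RMS of 0.42, and each was the 5th nearest of 4542 genes to the other. HTB1 stood 1187th from HTB2, with an RMS of 0.91, although both encode H2B. The genes nearest to HTB2 were EXG1, an exo-glucanase of the cell wall (0.24), KRE6, which acts in glucan synthesis (0.31), and SEC61, the translocation channel of the endoplasmic reticulum (0.41), where the median gene was at 1.05. The genes nearest to HHO1 were ADE17, of purine synthesis (0.36), SYN8, a SNARE of vesicle traffic (0.37), and EXG1 (0.40), with the median gene at 1.10. HTZ1 was nearest to SNR76, a small nucleolar RNA (0.18), WSC2, a cell wall sensor (0.19), and YCF1, a vacuolar transporter (0.20), with the median gene at 0.60. The 12 points of each measure share their arrays and their scaling. They include the rap1 ts arrays, so the RMS in part restates the fall there and is not a separate finding. In rap1 ts the log2 fold changes were -1.6 for EXG1, -1.61 for KRE6, -1.49 for SEC61, -1.58 for ADE17 and -1.34 for SYN8. In abf1 ts they were -0.03, -0.15, 0.16, -0.19 and 0.13.

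The regulators of the histone genes were read from a list of 13, of which 11 were tested, and SPT10 and SWI4 fell under the filter. In rap1 ts 0 of the 11 were called without the block, and 3 had an unadjusted p under 0.05, all higher, as had 12.9% of all features. With the block 6 were called higher and 0 lower, where 15% of all features were called higher and 10% lower. Of the 11 log2 fold changes 10 were above 0, with a median of 0.59, where the median of all features was 0.088. RTT106, a histone chaperone that also holds the histone promoters repressed, had 1222 ± 249.2 in rap1 ts and 672.8 ± 299.7 in rap1 wild type (SD, n = 3 each), a log2 fold change of 0.94 with an adjusted p of 0.0227 in limma with the block. MBP1, the DNA-binding subunit of MBF, had 2826 ± 1656 in rap1 ts and 1358 ± 336 in rap1 wild type, a log2 fold change of 0.92 with 0.0236. The other 4, named after their values were seen, were ASF1 (0.75), a chaperone of H3 and H4, SPT21 (0.67), which acts with Spt10, HIR2 (0.65), of the HIR complex, and YTA7 (0.59), a chromatin ATPase of the histone promoters. Leaving out a pair changed these calls: with the block 2, 3 and 0 regulators were called without rap1 pair 1, 2 and 3. RTT106 was not called without pair 2 or 3, nor MBP1 without pair 1 or 3. In abf1 ts 0 of the 11 were called with or without the block and 0 had an unadjusted p under 0.05, where 3.09% of all features had.

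Among 11 tested histone chaperones, 1 was called lower and 2 higher in rap1 ts with the block, beside 10% and 15% of all features, and 0 without it. Without it 1 had an unadjusted p under 0.05 and was lower, as were 9.34% of all features. NHP6A, an HMG-box protein that loosens nucleosomes, had 1160 ± 475 in rap1 ts and 2643 ± 390.8 in rap1 wild type (SD, n = 3 each) and fell by 1.26 log2 (adjusted p = 0.0109 in limma with the block). CHZ1, a chaperone of H2A.Z, rose by 0.68 log2 (0.0153 in limma with the block), and RLF2, a subunit of chromatin assembly factor 1, had a log2 fold change of 0.63 (0.0455). The call of RLF2 was lost without any 1 of the rap1 pairs and in 3 of the other 5 settings with a block (adjusted p of up to 0.1125 in limma), and that of CHZ1 without rap1 pair 3, while that of NHP6A held without each pair. Of the 11 tested genes of H2A.Z exchange, 1 was called higher and 0 lower with the block, again beside 15% and 10% of all features, and 0 without it (1 with an unadjusted p under 0.05, higher, as were 12.9% of all features). It was SWC5, a subunit of the SWR1 complex, with 1565 ± 531.4 in rap1 ts and 612.9 ± 153.5 in rap1 wild type (SD, n = 3 each), which rose by 1.32 log2 (adjusted p = 0.00628 in limma with the block), also without each rap1 pair. The gene of H2A.Z itself, HTZ1, fell in the same fit, as given above. In abf1 ts 0 genes of either list were called with or without the block. Without it 1 gene of H2A.Z exchange had an unadjusted p under 0.05 and was lower, as were 2.82% of all features.

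Since core histone messages peak in S phase, genes of the cell-cycle phases were read beside them. Of 21 tested genes of late G1 and S phase, 1 was called lower and 0 higher in rap1 ts without the block, and 2 lower and 1 higher with it, with a median log2 fold change of -0.03. Over all features 0.363% were called lower and 0.0427% higher without the block, and 10% lower and 15% higher with it, which also serve for the G2/M and M/G1 lists. SVS1, a cell wall protein, had 2863 ± 674 in rap1 ts and 7197 ± 554.8 in rap1 wild type (SD, n = 3 each) and fell by 1.35 log2 in both fits (adjusted p = 0.0418 in limma without the block). Without the block the call of SVS1 was lost when any 1 of the rap1 arrays was left out (adjusted p of 0.0575 to 0.174 in limma), and with the block it held without each pair. NRM1, a repressor of MBF targets, fell by 1.00 log2 with the block (0.0277 in limma) and CDC45, a replication factor, rose by 0.94 (0.0167). The call of NRM1 was lost without rap1 pair 1 or 2, and that of CDC45 without pair 3. Of 10 tested G2/M genes 3 were called lower and 1 higher with the block and 0 without it, with a median of -0.22. SWI5, a transcription factor of the end of mitosis, had 231.6 ± 115.7 in rap1 ts and 756.2 ± 216.4 in rap1 wild type (SD, n = 3 each) and fell by 1.73 log2 (adjusted p = 0.00639 in limma with the block). Its rap1 ts signals were 127.6 to 356.2, with a mean log2 value under the filter floor. SWI5 thus passed the filter through its other groups, and the size of its fall rests on low signals. Of 13 tested M/G1 genes 3 were called lower, among them CLN3, the cyclin that starts G1 transcription (-1.14), and 1 higher, SIC1, an inhibitor of the S-phase cyclins (0.82), with the block and 0 without it. Without rap1 ts array 1 the log2 fold change of CLN3 was -0.27 and without array 3 it was -1.74, and its call with the block was lost without rap1 pair 1 or 3. That of SIC1 was lost without the same pairs. In each of these last 2 lists 1 gene had an unadjusted p under 0.05 in each direction without the block, where 9.34% of all features did and were lower and 12.9% did and were higher.

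In abf1 ts 0 genes of the cell-cycle lists were called with or without the block, and 0 had an unadjusted p under 0.05, where 3.09% of all features had. There 19 of the 21 late G1 and S phase genes had fold changes below 0, with a median of -0.31. Over all features 54.51% were below 0, with a median of -0.029. The genes share their arrays, so their count is not one of separate observations. Summed over 23 genes of the list, signals were 43540, 23360 and 53990 in the abf1 ts arrays. In the abf1 wild-type arrays they were 48050, 29850 and 59990, and the groups overlapped. Bulk RNA cannot tell fewer cells in a phase from less RNA per cell, and the part of cell-cycle position in the histone values was not tested.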

How the data were processed

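Single-colour Affymetrix arrays of 12 samples were read from a table of linear intensity values per probe set, which the authors deposited. Per the submitters' processing notes MAS5 was used, and the sources used here give neither its version nor its settings. Of 9335 probe sets, 60 were controls. Gene names came from the platform annotation: 6504 probe sets named 1 gene, 328 several and 2443 were unnamed here. Neighbouring genes came from a RefSeq gene table of assembly R64.

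Values were taken as log2(signal + 13), the offset being the 10th percentile of the non-control values, so fold changes of low genes are understated. The probe set of highest mean stood for each gene set, and features under the 20th percentile of mean log2 signal were left out (5859 before, 4687 after). limma 3.58.1 in R 4.3.3 fitted the 4 groups together with a mean-variance trend, and p-values were adjusted by Benjamini-Hochberg over all 4687 features. A second fit had a block for each replicate number of each series, leaving 4 residual degrees of freedom against 8. The block cannot give the comparison of the wild types. It was used beside the first fit because the deviations of equally numbered arrays from their group means correlated above 0.1 in all 6 pairs; the labels do not state a pairing. Single values were tested by exact permutation of arrays. The scripts were tested on simulated data. The simulated arrays varied independently, with no deviation shared by equally numbered arrays, so the block was not tested on arrays that deviate together.

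Named genes were the members, up to 2 called genes per direction with the largest changes in each list, and the 3 nearest genes to each histone the results turn on. The members and lists were chosen with earlier results of these data known, and a count over a list is a description. Other scalings, offsets, filters, probe set rules and arrays left out were tried. The number of arrays limits the precision.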

Additional observations from a re-analysis of the deposited data

Results flagged for a closer look

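With the replicate block, the mutant effect of HHO1 was lower in the rap1 series than in the abf1 series, with a difference of -2.10 on the log2 scale in limma. The same test of the difference between series also called genes of the lists read beside the histones. With the block 2.88% of all features were called lower and 6.21% higher, and 0% in either direction without it. RTT106 differed by 1.32, CHZ1 by 0.969, SWC5 by 1.14 and ARP6, a subunit of the SWR1 complex, by 1.22, all higher in the rap1 series. Among the cell-cycle genes, CDC45 differed by 1.27, POL1, a DNA polymerase subunit, by 1.18 and SIC1 by 1.13, while SVS1 differed by -1.18, SWI5 by -1.68 and CHS2, a chitin synthase, by -1.31. In rap1 ts both SWI5 and CHS2 had a mean log2 value under the filter floor, so their differences rest on low signals. In other settings with the block some calls of the difference between series were lost. There the adjusted p in limma reached 0.0501 for RTT106, SWC5 and POL1, 0.0542 for SIC1 and 0.0574 for CHS2. The fit with the block was not repeated for the difference between series with a pair left out. Without the block and with 1 array left out, the adjusted p in limma of the HHO1 difference ran from 0.181 to 0.651.

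For some genes all 3 pairs of the rap1 series lay above 0 and all 3 pairs of the abf1 series below 0. This pattern was sought only among the histone features and the named genes of the lists. The named genes had been picked for a call in rap1 ts or in the difference between series, so their directions were in part set by that choice. The share of all features with the pattern was not taken. The mean log2 change was 0.944 in the rap1 series and -0.378 in the abf1 series for RTT106, 0.684 and -0.285 for CHZ1, and 0.458 and -0.759 for ARP6. POL1 had 0.595 in the rap1 series and -0.585 in the abf1 series. For these 4 genes the difference passed the test with the block, as above. RLF2 had 0.628 in the rap1 series and -0.258 in the abf1 series, and YTA7 had 0.590 in the rap1 series and -0.129 in the abf1 series. That these patterns of direction differ was not tested in itself.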

How the results depend on the processing

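In the rap1 comparison 0 histone features were called, and the count was also 0 in all settings without the block, leave-one-out included, except median centring, where it was 2 (HTB2 and HHO1, adjusted p = 0.0461 each in limma). With the replicate block it was 3, and likewise 3 with the block shared by both series or joined with quantile normalization or median centring. It was 5 with the block and the lowest-mean probe set or every probe set, and with the block it was 2, 2 and 4 without rap1 pair 1, 2 and 3. For the difference between the mutant effects it was 1 with the block, and 1 with the block and the lowest-mean or every probe set. The block changed no other call of a histone feature. The cause of these changes was not tested.

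Leaving out 1 array at a time, HTB1 minus HTB2 in the abf1 series ran from -0.148 to 0.651, and in the rap1 series from 1.22 to 2.18. Fold changes close to 0 changed sign. In the rap1 comparison H2A was at 0.109 after quantile normalization, with and without the block, and at 0.137 with the block without rap1 pair 2, and it ran from -0.219 to 0.191 with 1 array left out. In the abf1 comparison H2A was at -0.0438 after median centring, -0.0355 as the mean over its probe sets and -0.0740 with the lowest-mean set, with and without the block, and ran from -0.120 to 0.124. There H4 was at -0.0139 after median centring and ran from -0.0482 to 0.0949, H3 was at 0.00725 after quantile normalization and ran from -0.122 to 0.0166, and HHO1 ran from -0.574 to 0.400. For the difference between the mutant effects H2A was at 0.0518 after quantile normalization and ran from -0.222 to 0.188, and HTB1 was at 0.00278 and ran from -0.229 to 0.0279. Between the wild types HTB1 was at -0.0851 after quantile normalization and ran from -0.0815 to 0.138, HTZ1 was at 0.0517 after median centring and ran from -0.270 to 0.163, H3 ran from -0.200 to 0.271 and H2A from -0.0950 to 0.315. In the abf1 series the log2 change of the control ratio ran from -0.484 to 0.587 for SPT15 and from -1.26 to 0.463 for SRB4.

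Over all features, the rap1 count of lower calls was 17, from 3 to 28 under the other settings without the block and 470 with it. With the block the calls were 470 lower and 701 higher, and 615 lower and 597 higher with quantile normalization as well. Median centring moved the median of all features between the wild types from -0.111 to 0.00337. HHO1 was not tested under the filter at the 50th percentile, and the 3 arrays in each group limit every comparison.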
